A study of Homo sapiens with 16 samples.

Results

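Glucose enters a cell through facilitative transporters, is trapped by hexokinase, and is split and oxidised to pyruvate, with ATP made at the phosphoglycerate kinase and pyruvate kinase steps. In many tumour cells much of the pyruvate is reduced to lactate even when oxygen is present, and triple-negative breast cancer is known for a high use of glucose in this way. The transcription factors HIF1A and MYC are known to drive many genes of the chain. Described here are 10 of these genes, chosen by name in both deposited tables: the transporter SLC2A1, the enzymes HK2, PFKP, ALDOA, GAPDH, PGK1, ENO1, PKM and LDHA, and PDK1, a kinase that keeps pyruvate out of mitochondrial oxidation. They are 10 of 58735 genes in the tables, and all 10 passed the filter on low counts in every comparison.

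The study transfected a guide RNA directed at YES1, a Src-family tyrosine kinase gene, or a non-targeting guide into established human lines of triple-negative breast cancer. The groups were MDA-MB-231 with sgYES1, MDA-MB-231 with sgNTS, SUM159PT with sgYES1 and SUM159PT with sgNTS, with 4 libraries each and 16 in all, collected 48 h after lipofection. Both guides were delivered with Lipofectamine2000, the labels give a WT genotype for every sample and name no Cas protein, and the series' design text calls the replicates technical. P-values therefore measure the spread between these libraries, which may be technical. Each line had its own medium, so line and medium cannot be told apart.

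YES1, the targeted gene, was at 43.1 ± 1.14 CPM in sgYES1 and 109 ± 3.12 CPM in sgNTS of MDA-MB-231 (CPM, counts scaled by TMM and library size to a common total, mean ± SD, n = 4), and at 39.4 ± 0.870 CPM in sgYES1 and 92.9 ± 3.78 CPM in sgNTS of SUM159PT. Libraries held 17156454 to 25124164 counts in MDA-MB-231 and 14352042 to 20884267 counts in SUM159PT. MDA-MB-231 sgNTS replicate 4 stood apart, with chi-square values per degree of freedom of 9.38 to 29.1 against the rest of its group, where the others had 3.36 to 6.81 among themselves. For SUM159PT sgNTS replicate 2 these were 3.75 to 5.74, against 2.33 to 2.87. Replicate 1 of MDA-MB-231 sgYES1 had 5.09 to 6.00, against 2.34 to 4.63 among the others of its group. In SUM159PT sgYES1 the values ran from 2.85 to 6.24. Mitochondrial transcripts took 3.78% to 5.08% of counts in sgYES1 and 2.34% to 5.15% in sgNTS of MDA-MB-231, and 3.50% to 3.72% in sgYES1 and 3.42% to 3.60% in sgNTS of SUM159PT. Of the receptors that define the subtype, PGR was at 0, ESR1 averaged under 1 CPM in each group, and ERBB2 was at 99.5 ± 4.74 CPM in sgYES1 and 109 ± 2.22 CPM in sgNTS of MDA-MB-231 and at 95.5 ± 4.95 CPM in sgYES1 and 108 ± 4.79 CPM in sgNTS of SUM159PT. The 5 mesenchymal markers summed to 3448 to 3585 CPM in sgYES1 and 3905 to 4186 CPM in sgNTS of MDA-MB-231, and to 2000.1 to 2065 CPM in sgYES1 and 2331 to 2373 CPM in sgNTS of SUM159PT, and the 5 luminal markers to 253 to 300.1 CPM in sgYES1 and 304 to 323 CPM in sgNTS of MDA-MB-231, and to 13.1 to 15.7 CPM in sgYES1 and 11.9 to 15.1 CPM in sgNTS of SUM159PT. The 8 leukocyte markers summed to 12.2 to 13.5 CPM in sgYES1 and 8.87 to 10.0 CPM in sgNTS of MDA-MB-231, and to 1.91 to 2.77 CPM in sgYES1 and 0.557 to 1.15 CPM in sgNTS of SUM159PT. CD3E was at 0 and PTPRC under 1 CPM in each group. CSF1R was at 9.19 ± 0.806 CPM in sgYES1 and 7.73 ± 0.349 CPM in sgNTS of MDA-MB-231. All 3 leukocyte markers tested in MDA-MB-231 were higher with sgYES1, as were 20.8% of all genes tested there. The 5 endothelial markers summed to 7.77 to 10.4 CPM in sgYES1 and 4.48 to 5.69 CPM in sgNTS of MDA-MB-231, and to 5.85 to 11.02 CPM in sgYES1 and 7.53 to 8.38 CPM in sgNTS of SUM159PT. The 6 fibroblast markers summed to 32.5 to 33.9 CPM in sgYES1 and 23.7 to 27.8 CPM in sgNTS of MDA-MB-231, and to 73.0 to 96.1 CPM in sgYES1 and 71.8 to 76.2 CPM in sgNTS of SUM159PT. These marker sums are in CPM over library totals, without TMM scaling. Genes of a sum did not all differ alike between the lines. KRT19 alone averaged 241 CPM in sgYES1 and 285 CPM in sgNTS of MDA-MB-231, most of the luminal sum, and 0 in SUM159PT. In sgNTS, FOXA1 was at 0.170 CPM in MDA-MB-231 and 3.28 CPM in SUM159PT. VIM was there at 1134 and 1658 CPM, AXL at 1730 and 431 CPM, and CD44 at 1055 and 182 CPM. The part of the markers in the results was not tested.

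Per base of annotated exons, the 10 genes spanned a wide range of levels in a nearly fixed order. GAPDH, the dehydrogenase in the middle of the chain, had the highest level in all 4 groups, followed by the enolase ENO1, the pyruvate kinase PKM and the lactate dehydrogenase LDHA. GAPDH was at 2224 ± 96.0 TPM in MDA-MB-231 sgYES1 and 2485 ± 141 TPM in MDA-MB-231 sgNTS, and at 2958 ± 91.1 TPM in SUM159PT sgYES1 and 2977 ± 37.6 TPM in SUM159PT sgNTS (TPM, counts divided by the gene length in the tables and scaled to a common total, mean ± SD, n = 4). PDK1 had the lowest level, at 5.99 ± 0.360 TPM in MDA-MB-231 sgYES1 and 6.73 ± 0.642 TPM in MDA-MB-231 sgNTS, and at 4.38 ± 0.164 TPM in SUM159PT sgYES1 and 5.75 ± 0.788 TPM in SUM159PT sgNTS. These lengths are the union of all annotated exons of a gene, not those of 1 transcript, from 2981 bases for GAPDH to 14883 for PDK1, and the order depends on them. By CPM, ENO1 and PKM were above GAPDH in all 4 groups, and ALDOA was below PDK1 in all but SUM159PT sgYES1. Per exon base, the order differed between the lines in the place of SLC2A1, which came before PGK1 and PFKP in MDA-MB-231 and after both in SUM159PT. Neighbours in this order had ranges over libraries that did not overlap, except PGK1, at 339 to 364 TPM, and PFKP, at 317 to 343 TPM, in MDA-MB-231 sgYES1.

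**Figure D1:**
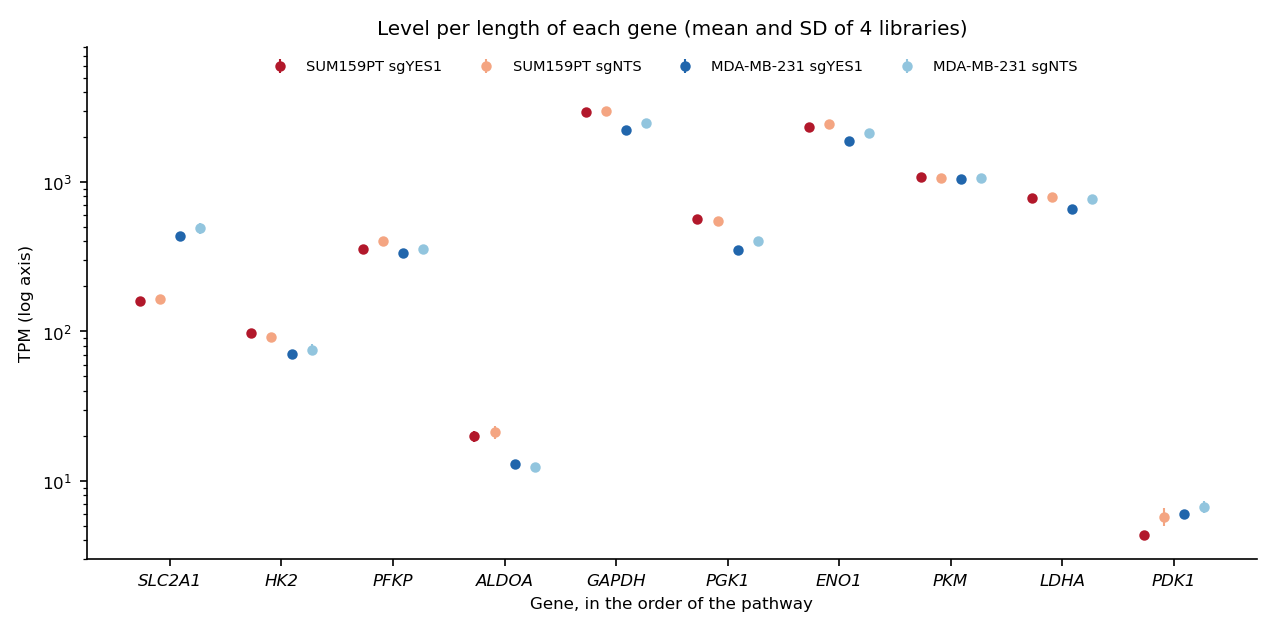
Level of each gene in TPM on a log axis, as the mean and SD of the 4 libraries of each group. GAPDH is the highest and PDK1 the lowest in all 4 groups, and SLC2A1 lies lower in SUM159PT than in MDA-MB-231.

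ALDOA, the aldolase of muscle and of most proliferating cells, was low for a gene of the main chain, at 12.996 ± 0.303 TPM in MDA-MB-231 sgYES1 and 12.4 ± 0.857 TPM in MDA-MB-231 sgNTS, and at 19.8 ± 1.59 TPM in SUM159PT sgYES1 and 21.3 ± 2.22 TPM in SUM159PT sgNTS. In GENCODE 29, whose gene starts and ends match those of all genes in the tables, 93.8% of its coding bases and 42.3% of its exon bases also belong to exons of AC093512.2, a protein-coding gene model on the same strand (chr16:30053090-30070420, hg38). The labels do not say how reads in shared bases were counted, so the level of ALDOA is uncertain; its results rest on 5461 counts over the 16 libraries. No other member shared more than 2.48% of its exon bases with a gene on its own strand. On the opposite strand, AC006064.4 shared 14.2% of the exon bases of GAPDH and AC093512.1 13.3% of those of ALDOA, each with 0 counts. The strand setting is not given, so an effect of this sharing on the counts is not known. Pseudogenes of GAPDH, 62 by name, held 0.298% as many counts as GAPDH, and those of LDHA held 0.193% as many as LDHA.

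With sgYES1 in MDA-MB-231, 5 of the 10 genes fell and none rose, by edgeR's quasi-likelihood test with Benjamini-Hochberg adjustment over 15427 genes. They were SLC2A1, GAPDH, PGK1, ENO1 and LDHA, with falls from 0.15 to 0.21 on the log2 scale. Over all genes tested, 42.8% were called, 22.1% lower and 20.8% higher. Higher calls made up 48.5% of all calls with TMM scaling and 59.8% with library totals alone. Of the 247 genes that averaged 500 CPM or more, a level chosen after the values were seen, 52.2% were lower and 12.6% higher, and 5 of the 6 members at that level were lower. The median log2 fold change was -0.16 over the members and 0.01 over all genes tested. In bulk samples, fewer cells that express a gene and less RNA per cell cannot be told apart.

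SLC2A1 (ENSG00000117394, chr1:42925375-42959176, minus strand, hg38), which encodes the basal glucose transporter GLUT1, was at 573, 564, 572 and 564 CPM in sgYES1 and at 622, 625, 646 and 661 CPM in sgNTS of MDA-MB-231. Every sgYES1 library lay below every sgNTS library; over all genes tested, the groups did not overlap for 39.2%. SLC2A1 fell by 0.17 on the log2 scale (SE 0.032, adjusted p = 0.000690). HK2 (ENSG00000159399, chr2:74833981-74893359, plus strand), an inducible hexokinase that docks on mitochondria, was at 121, 126, 116 and 109 CPM in sgYES1 and at 123, 125, 128 and 131 CPM in sgNTS, and the groups overlapped. Its log2 fold change of -0.10 (SE 0.045) had an adjusted p of 0.0766. PFKP (ENSG00000067057, chr10:3066333-3137712, plus strand), the platelet-type subunit of phosphofructokinase, which makes the committed step, was at 441, 464, 459.9 and 431 CPM in sgYES1 and at 482, 469, 488 and 469 CPM in sgNTS. The groups did not overlap, but the log2 fold change of -0.09 (SE 0.034) missed the threshold, with an adjusted p of 0.0533.

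In the middle of the chain, GAPDH (ENSG00000111640, chr12:6533927-6538374, plus strand) was at 1877, 1836, 1859 and 1799 CPM in sgYES1 and at 2091, 2023, 2024 and 2063 CPM in sgNTS of MDA-MB-231. It fell by 0.15 on the log2 scale (SE 0.031, adjusted p = 0.000975), and the groups did not overlap. PGK1 (ENSG00000102144, chrX:77910739-78129296, plus strand), the kinase of the first ATP-forming step, was at 535, 533, 529 and 545 CPM in sgYES1 and at 615, 609.9, 629.8 and 595 CPM in sgNTS. All its sgYES1 libraries were low, within a narrow range, and it fell by 0.19 (SE 0.031, adjusted p = 0.000179). ENO1 (ENSG00000074800, chr1:8861000-8879250, minus strand), the main enolase outside muscle and nerve, was at 2694, 2709, 2755 and 2855 CPM in sgYES1 and at 3163, 3054, 3139 and 3067 CPM in sgNTS. It fell by 0.17 (SE 0.032, adjusted p = 0.000524), again without overlap. ALDOA (ENSG00000149925, chr16:30064164-30070457, plus strand) was at 13.8 to 14.5 CPM in sgYES1 and 12.4 to 14.7 CPM in sgNTS, with a log2 fold change of 0.08 (95% interval -0.08 to 0.24, adjusted p = 0.413).

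At the end of the chain, LDHA (ENSG00000134333, chr11:18394388-18408425, plus strand), the subunit that favours the reduction of pyruvate to lactate, was at 1129.7, 1180.2, 1108 and 1150.0 CPM in sgYES1 and at 1315, 1324, 1348 and 1283 CPM in sgNTS of MDA-MB-231. It fell by 0.21 on the log2 scale (SE 0.033, adjusted p = 0.000153), the largest fitted change of the 10 in this line, without overlap. PKM (ENSG00000067225, chr15:72199029-72231822, minus strand), a pyruvate kinase whose splice forms gene counts do not separate, was at 2465, 2512, 2474 and 2534 CPM in sgYES1 and at 2560.3, 2495, 2559.8 and 2517 CPM in sgNTS. The groups overlapped, and its log2 fold change was -0.02 (95% interval -0.08 to 0.04, adjusted p = 0.596). PDK1 (ENSG00000152256, chr2:172555373-172608669, plus strand) was at 25.1, 24.7, 23.3 and 25.9 CPM in sgYES1 and at 26.5, 31.7, 25.9 and 26.9 CPM in sgNTS. The highest sgYES1 library just exceeded the lowest sgNTS library, and the log2 fold change of -0.16 (SE 0.068) had an adjusted p of 0.0693. The falls of SLC2A1, GAPDH, PGK1, ENO1 and LDHA passed under each of the 13 alternatives tried for this comparison.

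Summed, the 10 genes took 1.01%, 1.01%, 1.00% and 1.01% of all counts in the sgYES1 libraries of MDA-MB-231 and 1.08%, 1.06%, 1.08% and 1.07% in the sgNTS libraries. The groups did not overlap. In SUM159PT they took 1.16%, 1.18%, 1.16% and 1.21% in sgYES1 and 1.17%, 1.19%, 1.17% and 1.21% in sgNTS, and there the groups overlapped. ENO1, PKM, GAPDH and LDHA held most of each sum, so the sums largely repeat the levels of these genes. These sums are a description, with no test.

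**Figure D2:**
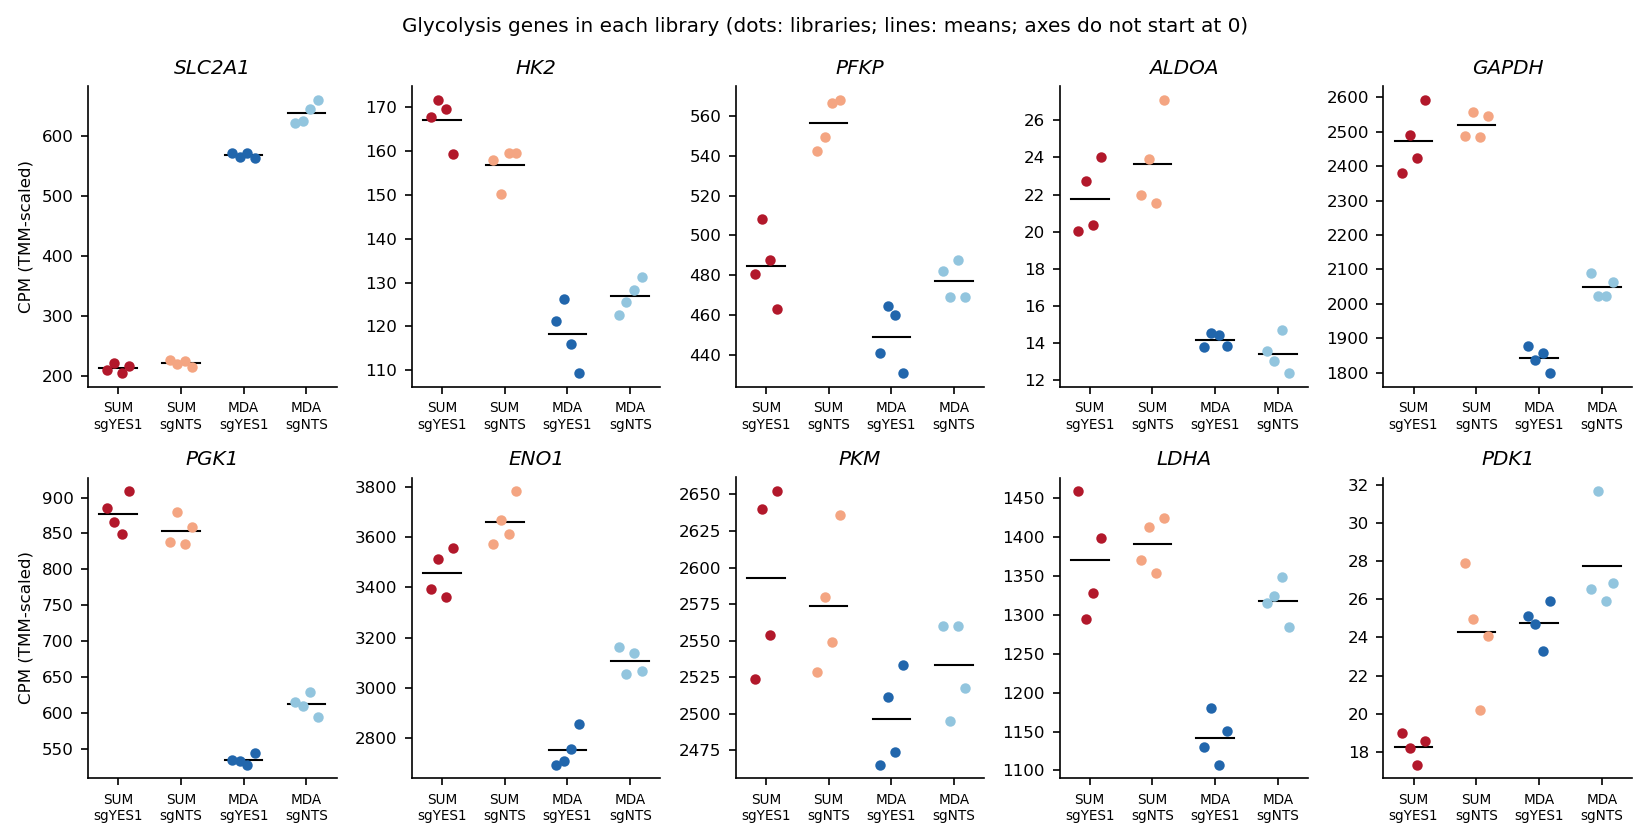
CPM of the 10 genes in each of the 16 libraries, with a dot per library and a line at the group mean. Each panel has its own axis, and CPM were TMM-scaled within each line. In MDA-MB-231 every sgYES1 dot of SLC2A1, PFKP, GAPDH, PGK1, ENO1 and LDHA lies below every sgNTS dot, and in SUM159PT this holds for PFKP, ENO1 and PDK1.

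In SUM159PT 3 of the 10 genes, PDK1, PFKP and ENO1, fell with sgYES1 and none rose, by the same edgeR test over 14479 genes, of which 39.4% were called, 19.7% lower and 19.6% higher. Of 233 genes that averaged 500 CPM or more, 47.2% were lower and 15.0% higher, and 2 of the 6 members at that level were lower. The median log2 fold change was -0.04 over the members and -0.01 over all genes tested.

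PDK1 had the largest fitted guide effect of the 10 in either line. It was at 19.0, 18.2, 17.3 and 18.5 CPM in sgYES1 and at 27.9, 25.0, 20.2 and 24.1 CPM in sgNTS of SUM159PT. The groups did not overlap, as for 35.3% of all genes tested, although the sgNTS libraries spread widely, and PDK1 fell by 0.41 on the log2 scale (SE 0.086, adjusted p = 0.000637). PFKP was at 481, 508, 488 and 463 CPM in sgYES1 and at 542, 549.5, 566 and 568 CPM in sgNTS. It fell by 0.20 (SE 0.038, adjusted p = 0.000231), without overlap, and both calls held under all 13 alternatives tried. ENO1 was at 3394, 3515, 3364 and 3559 CPM in sgYES1 and at 3575, 3670.1, 3613 and 3784 CPM in sgNTS. Its fall of 0.08 (SE 0.032, adjusted p = 0.0439) was lost under 9 of 13 alternatives, among them each that left out 1 of sgNTS replicates 2, 3 and 4 and sgYES1 replicates 1 and 3, with adjusted p from 0.0324 to 0.154 over all 13.

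Of the genes that fell in MDA-MB-231, PGK1 was at 885, 865, 849 and 909 CPM in sgYES1 and at 838, 880.3, 836 and 859 CPM in sgNTS of SUM159PT. The groups overlapped, and its log2 fold change was 0.04 (95% interval -0.03 to 0.11, adjusted p = 0.395). LDHA was at 1458, 1295, 1328 and 1398 CPM in sgYES1 and at 1369.5, 1412, 1354 and 1424 CPM in sgNTS. The sgYES1 libraries held both the highest and the lowest value, and the log2 fold change was -0.02 (95% interval -0.10 to 0.06, adjusted p = 0.694). SLC2A1 was at 210.3, 221, 204 and 216 CPM in sgYES1 and at 227, 219, 224 and 214 CPM in sgNTS, with overlap and a log2 fold change of -0.05 (95% interval -0.14 to 0.03, adjusted p = 0.300). For GAPDH the log2 fold change was -0.03 (95% interval -0.10 to 0.04, adjusted p = 0.548).

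HK2 was at 168, 172, 169.7 and 159 CPM in sgYES1 and at 158, 150.3, 159.5 and 159.7 CPM in sgNTS of SUM159PT. Only sgYES1 replicate 4 lay within the sgNTS range, and the log2 fold change of 0.09 (SE 0.042) had an adjusted p of 0.0901. PKM had a log2 fold change of 0.01 (95% interval -0.05 to 0.08, adjusted p = 0.817). For ALDOA it was -0.12 (95% interval -0.30 to 0.05, adjusted p = 0.256).

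The guide effect differed between the lines for 3 of the 10 genes, by the interaction of line and guide in edgeR over all 16 libraries. Over 16640 genes 24.5% passed that test, 12.7% with a higher and 11.9% with a lower log2 fold change in SUM159PT. The effect was higher in SUM159PT than in MDA-MB-231 for all 3. The difference was 0.22 on the log2 scale for PGK1 (SE 0.048, adjusted p = 0.00135). It was 0.18 for HK2 (SE 0.062, adjusted p = 0.0304) and 0.17 for LDHA (SE 0.054, adjusted p = 0.0191). The differences of PGK1 and LDHA passed under all 22 alternatives tried. That of HK2 was lost under 3 of 22, among them without MDA-MB-231 sgYES1 replicate 3 and without MDA-MB-231 sgNTS replicate 4 and SUM159PT sgNTS replicate 2 together, with adjusted p from 0.00470 to 0.0896 over all 22.

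For the other 7 members the difference did not pass after adjustment over genes, which the intervals that follow do not include. The 95% interval of the difference was 0.0012 to 0.20 for SLC2A1, 0.02 to 0.21 for GAPDH, -0.02 to 0.18 for ENO1 and -0.07 to 0.11 for PKM on the log2 scale. It was -0.23 to -0.02 for PFKP, -0.49 to -0.03 for PDK1 and -0.46 to 0.03 for ALDOA. GAPDH had an adjusted p of 0.0767, and passed under 12 of 22 alternatives. PDK1 and PFKP, which fell in SUM159PT, had adjusted p of 0.0953 and 0.0838.

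**Figure D3:**
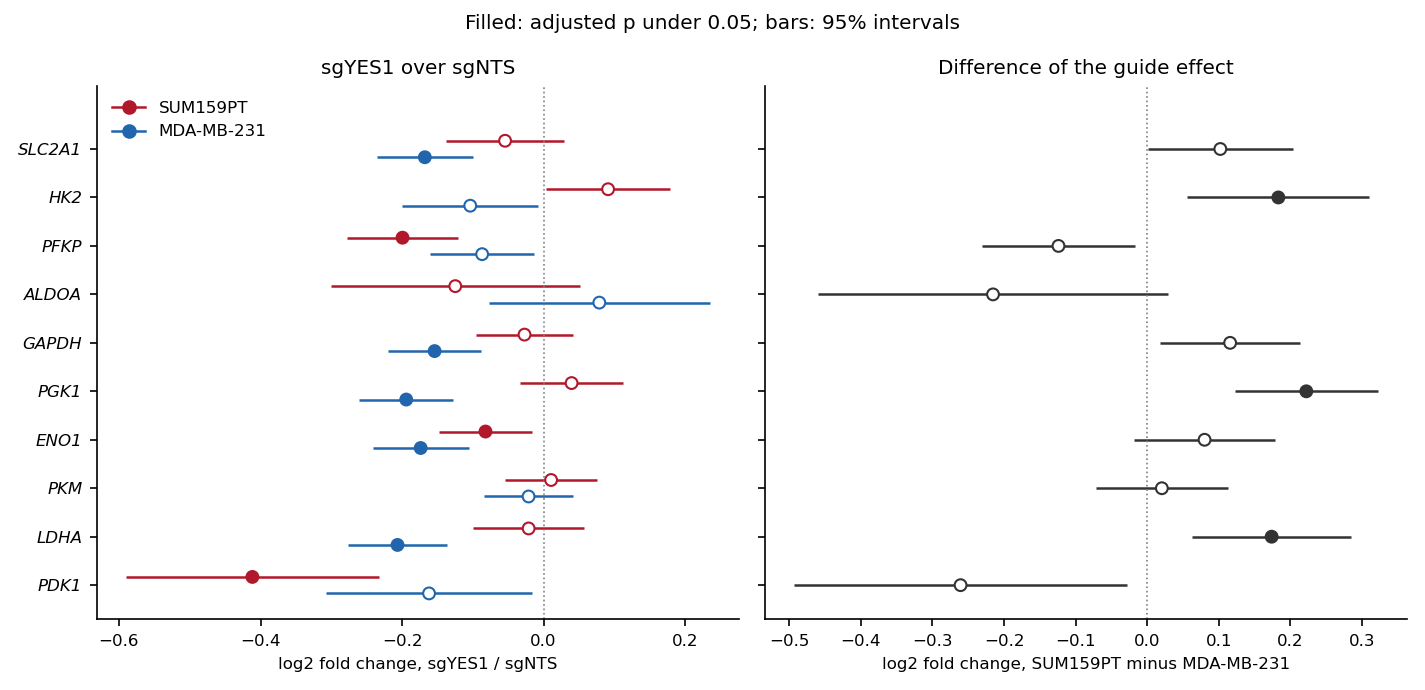
Log2 fold change of sgYES1 over sgNTS in each line (left) and the difference of the effects, SUM159PT minus MDA-MB-231 (right), with 95% intervals; filled dots have an adjusted p under 0.05. The filled dots of MDA-MB-231 lie between -0.21 and -0.15, and PDK1 in SUM159PT lies farthest from 0, at -0.41.

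The promoters of PGK1 and LDHA, whose guide effect differed between the lines under every alternative, and of HK2 and PFKP, which make early steps of the chain, are shown with the core of the hypoxia response element, the motif that HIF1A binds. Each is the 250 bases before the RefSeq gene start, 5′ to 3′ on the plus strand of GRCh38.p14, on which all 4 genes lie: chrX:78103998-78104247, chr11:18394313-18394562, chr2:74833877-74834126 and chr10:3067720-3067969. Capitals mark the core ACGTG on either strand, which reads CACGT where it lies on the other strand, and the E-box CACGTG, which holds the core on both strands.
PGK1: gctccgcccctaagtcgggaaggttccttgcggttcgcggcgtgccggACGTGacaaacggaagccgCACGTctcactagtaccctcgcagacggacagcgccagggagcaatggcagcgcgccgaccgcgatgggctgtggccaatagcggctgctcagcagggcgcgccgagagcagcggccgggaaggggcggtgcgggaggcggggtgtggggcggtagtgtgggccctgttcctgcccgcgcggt
LDHA: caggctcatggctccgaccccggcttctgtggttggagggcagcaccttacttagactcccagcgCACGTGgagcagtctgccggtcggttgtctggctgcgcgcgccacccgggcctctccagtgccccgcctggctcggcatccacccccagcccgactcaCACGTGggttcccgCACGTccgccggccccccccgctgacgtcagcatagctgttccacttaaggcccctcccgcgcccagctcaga
HK2: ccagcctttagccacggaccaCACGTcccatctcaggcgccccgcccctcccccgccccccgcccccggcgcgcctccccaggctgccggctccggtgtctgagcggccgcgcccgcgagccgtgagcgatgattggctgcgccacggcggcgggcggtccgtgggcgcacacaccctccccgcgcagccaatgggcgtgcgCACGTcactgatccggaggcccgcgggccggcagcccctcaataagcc
PFKP: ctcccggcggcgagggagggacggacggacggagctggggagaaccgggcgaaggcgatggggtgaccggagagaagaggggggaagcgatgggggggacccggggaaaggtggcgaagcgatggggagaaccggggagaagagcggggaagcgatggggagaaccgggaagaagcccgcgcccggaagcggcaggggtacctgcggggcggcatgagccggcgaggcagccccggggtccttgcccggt
The PGK1 window held the core 202 and 183 bases before the start, and the HK2 window 229 and 48 bases before it. The LDHA window held 5 matches, 4 of them within 2 E-boxes, and the PFKP window held none. Over the members, 5 of 10 windows held the core (HK2, ALDOA, GAPDH, PGK1 and LDHA), against 18.5% of 35116 windows of the same length over all genes of the RefSeq table. An E-box was in 2 of 10 (GAPDH and LDHA), against 6.34%. The core holds a CpG, and the windows compared were not matched for base content nor limited to protein-coding genes. HIF1A is known to drive many genes of the chain, so the comparison is a description and no test. Among the members, G and C made up 35.6% (PDK1) to 76.8% (HK2) of a window. The RefSeq starts of all 4 genes lie inside the GENCODE spans given above, which begin further upstream. A match is a description of the letters and not a site shown to be bound.

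HIF1A was at 264 ± 16.2 CPM in sgYES1 and 279 ± 6.63 CPM in sgNTS of MDA-MB-231 (adjusted p = 0.139), and at 737 ± 55.4 CPM in sgYES1 and 786 ± 40.0 CPM in sgNTS of SUM159PT (adjusted p = 0.120), and did not pass in either line. Of the 7 listed transcription factors, 2 were higher and 1 lower in MDA-MB-231, and 2 were higher and 2 lower in SUM159PT. The shares over all genes tested were 20.8% higher and 22.1% lower in MDA-MB-231, and 19.6% and 19.7% in SUM159PT. EPAS1, which encodes the related factor HIF2A, rose by 0.65 on the log2 scale in MDA-MB-231 (adjusted p = 1.10e-06) and by 0.16 in SUM159PT (adjusted p = 0.00348). MYC was at 922, 926, 912 and 886 CPM in sgYES1 and at 1197, 894, 1208 and 1095 CPM in sgNTS of SUM159PT, where sgNTS replicate 2 lay within the sgYES1 range. It fell by 0.27 in SUM159PT (adjusted p = 0.00138) and rose by 0.24 in MDA-MB-231 (adjusted p = 0.000189), and the effects differed (adjusted p = 7.15e-05). MLX, a partner of the glucose-sensing factors MLXIP and MLXIPL, rose by 0.31 in SUM159PT and fell by 0.18 in MDA-MB-231 (adjusted p of the difference = 6.49e-06).

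Of 16 other hypoxia-inducible genes, all tested in both lines, 6 were higher and 1 lower in MDA-MB-231, and 5 were higher and 5 lower in SUM159PT. The shares over all genes tested were 20.8% higher and 22.1% lower in MDA-MB-231, and 19.6% and 19.7% in SUM159PT. ANGPTL4, a secreted inhibitor of lipoprotein lipase, was at 47.6 ± 2.59 CPM in sgYES1 and 14.7 ± 1.61 CPM in sgNTS of MDA-MB-231, and at 53.4 ± 5.35 CPM in sgYES1 and 17.3 ± 1.06 CPM in sgNTS of SUM159PT. It rose by 1.70 in MDA-MB-231 and by 1.62 in SUM159PT on the log2 scale (adjusted p = 5.04e-10 and 7.92e-13). ADM, the vasodilator peptide adrenomedullin, rose by 0.51 in MDA-MB-231 and by 1.51 in SUM159PT (adjusted p = 1.20e-06 and 6.26e-12). VEGFA, the endothelial growth factor, fell by 0.54 in SUM159PT (adjusted p = 8.25e-06) and rose by 0.71 in MDA-MB-231 (adjusted p = 3.29e-07). NDRG1, a stress-induced differentiation gene, rose by 0.17 in MDA-MB-231 and by 0.50 in SUM159PT (adjusted p = 0.00304 and 2.60e-07).

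Around the members, 80 related genes in 9 groups were listed. In MDA-MB-231 63 of them were tested, 12 were higher and 17 lower with sgYES1. In SUM159PT 58 were tested, 8 were higher and 17 lower. Over all genes tested, 20.8% were higher and 22.1% lower in MDA-MB-231, and 19.6% and 19.7% in SUM159PT. These shares also stand beside the counts of each group below. The median log2 fold change of the tested related genes was -0.07 in each line. Under all 13 alternatives of a line, 23 of 29 calls were kept in MDA-MB-231 and 14 of 25 in SUM159PT.

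Of 8 tested enzymes of the same chain, 1 was higher and 4 lower in MDA-MB-231, and 3 were higher and 2 lower in SUM159PT. GPI, the isomerase that follows hexokinase, was at 409 ± 7.23 CPM in sgYES1 and 475 ± 14.9 CPM in sgNTS of MDA-MB-231, and fell by 0.21 on the log2 scale (adjusted p = 0.000124). PGAM1, the mutase between PGK1 and ENO1 in the chain, was at 484 ± 9.83 CPM in sgYES1 and 566 ± 10.2 CPM in sgNTS of MDA-MB-231, and fell by 0.22 (adjusted p = 5.18e-05). In SUM159PT GPI fell by 0.13 (adjusted p = 0.0136), a call lost without sgNTS replicate 4 and without sgYES1 replicate 3 (highest adjusted p 0.0706). PGAM1 was there at 459.8 ± 12.03 CPM in sgYES1 and 439.9 ± 17.6 CPM in sgNTS (adjusted p = 0.199), and its guide effect differed between the lines, by 0.28 (adjusted p = 0.000310). TPI1, the triose phosphate isomerase, named after its values were seen, fell by 0.24 in MDA-MB-231 (adjusted p = 0.000213). In SUM159PT TPI1 was at 687 ± 25.4 CPM in sgYES1 and 739 ± 22.0 CPM in sgNTS, and with GPI made up the 2 lower calls. ADPGK, an ADP-dependent glucokinase, rose by 0.39 in SUM159PT (adjusted p = 1.63e-06). ALDOC, the brain aldolase, did not pass (adjusted p = 0.325 in MDA-MB-231 and 0.312 in SUM159PT).

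**Figure D4:**
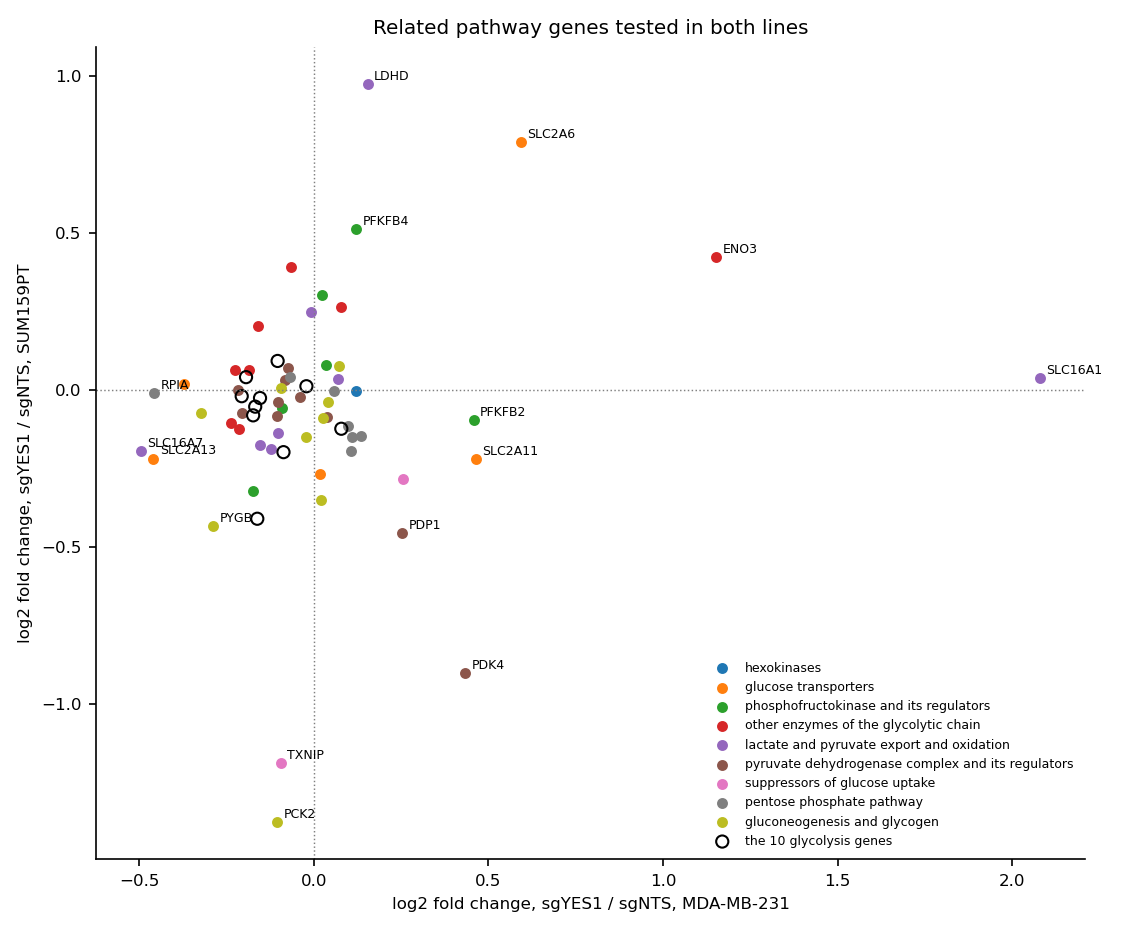
Log2 fold change of sgYES1 over sgNTS in MDA-MB-231 (horizontal) and SUM159PT (vertical) for the 56 related genes tested in both lines, coloured by group, with the 10 members as open circles; called genes past 0.4 on the log2 scale are named. Of the members PDK1 lies farthest from 0, at -0.16 and -0.41, SLC2A6 is high on both axes, and PCK2 and TXNIP lie lowest, at -1.38 and -1.19 in SUM159PT.

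Of 7 tested genes of the glucose transporter family (SLC2A) other than SLC2A1, 2 were higher and 2 lower in MDA-MB-231, and 1 was higher and none lower in SUM159PT. SLC2A6, which encodes a family member of inner membranes, was at 48.5 ± 4.40 CPM in sgYES1 and 32.05 ± 0.815 CPM in sgNTS of MDA-MB-231, and at 59.1 ± 3.66 CPM in sgYES1 and 34.2 ± 2.63 CPM in sgNTS of SUM159PT. It rose in both lines, by 0.59 in MDA-MB-231 and 0.79 in SUM159PT on the log2 scale (adjusted p = 4.31e-06 and 6.03e-09). SLC2A1 made up 82.9% ± 0.499 in sgYES1 and 86.1% ± 0.479 in sgNTS of MDA-MB-231 of the summed TPM of SLC2A1, SLC2A3, SLC2A4, SLC2A6, SLC2A8, SLC2A10, SLC2A12, SLC2A13 and SLC2A14, and 60.8% ± 0.976 in sgYES1 and 67.0% ± 0.863 in sgNTS of SUM159PT (mean ± SD, n = 4). Other listed genes of the family, SLC2A2, SLC2A5, SLC2A9 and SLC2A11, were not part of this sum. SLC2A3, the high-affinity transporter GLUT3, did not pass (adjusted p = 0.816 in MDA-MB-231 and 0.0687 in SUM159PT).

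TXNIP, an arrestin that takes GLUT1 off the cell surface, was at 86.9, 79.2, 81.7 and 91.4 CPM in sgYES1 and at 238, 131, 216 and 190.1 CPM in sgNTS of SUM159PT. The groups did not overlap, with sgNTS replicate 2 nearest to sgYES1, and TXNIP fell by 1.19 on the log2 scale (SE 0.11, adjusted p = 3.96e-08). In MDA-MB-231 it fell by 0.10 (adjusted p = 0.0197), a call lost under 3 of 13 alternatives, among them library totals alone and leaving out sgYES1 replicate 3 (highest adjusted p 0.198). The difference between the lines was -1.10 (adjusted p = 2.10e-06).

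HK2 had less than HK1 by TPM and by CPM. It made up 22.4% ± 1.40 in sgYES1 and 26.7% ± 0.361 in sgNTS of MDA-MB-231 of the family's summed TPM, and 25.9% ± 0.171 in sgYES1 and 24.7% ± 0.415 in sgNTS of SUM159PT. HK1, the constitutive form, made up 66.7% ± 0.967 in sgYES1 and 68.2% ± 0.495 in sgNTS of MDA-MB-231, and 73.9% ± 0.214 in sgYES1 and 75.3% ± 0.420 in sgNTS of SUM159PT. HK1 rose by 0.12 on the log2 scale in MDA-MB-231 (adjusted p = 0.00546) and had a log2 fold change of -0.01 in SUM159PT (adjusted p = 0.918). HKDC1, a protein with hexokinase domains, was at 40.5 ± 2.53 CPM in sgYES1 and 16.9 ± 1.96 CPM in sgNTS of MDA-MB-231, and rose by 1.26 (adjusted p = 2.18e-08). In SUM159PT HKDC1 was under 1 CPM and not tested.

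PFKP made up 75.1% ± 0.744 in sgYES1 and 74.4% ± 0.469 in sgNTS of MDA-MB-231 of the summed TPM of phosphofructokinase subunits, and 65.9% ± 1.1999 in sgYES1 and 65.8% ± 0.649 in sgNTS of SUM159PT. PFKL, the liver-type subunit, fell by 0.17 on the log2 scale in MDA-MB-231 (adjusted p = 0.00922) and by 0.32 in SUM159PT (adjusted p = 8.63e-06). PFKM, the muscle-type subunit, did not pass (adjusted p = 0.161 in MDA-MB-231 and 0.273 in SUM159PT). PFKFB3, whose product makes the allosteric activator of phosphofructokinase, rose by 0.30 in SUM159PT (adjusted p = 9.23e-05) and had a log2 fold change of 0.02 in MDA-MB-231 (adjusted p = 0.728); the effects differed (adjusted p = 0.00553). PFKFB2, of the same family, rose by 0.46 in MDA-MB-231 (adjusted p = 0.000895). Of the 6 tested genes of this group, 1 was higher and 1 lower in MDA-MB-231, and 2 were higher and 1 lower in SUM159PT.

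ENO1 made up 94.1% ± 0.193 in sgYES1 and 94.7% ± 0.456 in sgNTS of MDA-MB-231 of the summed TPM of enolases, and 98.4% ± 0.0396 in sgYES1 and 98.6% ± 0.147 in sgNTS of SUM159PT. ENO3, the muscle enolase, was at 26.9 ± 1.14 CPM in sgYES1 and 12.1 ± 1.75 CPM in sgNTS of MDA-MB-231, and rose by 1.15 on the log2 scale (adjusted p = 1.92e-07). In SUM159PT it rose by 0.42 (adjusted p = 0.0140), a call lost without sgNTS replicate 4 (adjusted p = 0.0726). ENO2, the neuronal enolase, fell by 0.18 in MDA-MB-231 (adjusted p = 0.0239), a call lost under 5 of 13 alternatives.

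LDHA made up 96.7% ± 0.434 in sgYES1 and 96.9% ± 0.0972 in sgNTS of MDA-MB-231 of the summed TPM of lactate dehydrogenases, and 95.9% ± 0.0939 in sgYES1 and 95.6% ± 0.179 in sgNTS of SUM159PT. LDHB, the heart-type subunit, did not pass (adjusted p = 0.364 in MDA-MB-231 and 0.103 in SUM159PT). SLC16A3, the lactate exporter MCT4, rose by 0.25 on the log2 scale in SUM159PT (adjusted p = 0.000112) and had a log2 fold change of -0.01 in MDA-MB-231 (adjusted p = 0.895); the effects differed (adjusted p = 0.00277). SLC16A1, the transporter MCT1, was at 1.98 ± 0.686 CPM in sgYES1 and 0.448 ± 0.137 CPM in sgNTS of MDA-MB-231 (adjusted p = 0.000186), and at 182 ± 10.1 CPM in sgYES1 and 177 ± 4.74 CPM in sgNTS of SUM159PT (adjusted p = 0.555). BSG, the membrane chaperone of both transporters, fell by 0.12 in MDA-MB-231 (adjusted p = 0.0139; lost with library totals alone) and by 0.19 in SUM159PT (adjusted p = 0.000447). Of this group, 1 of 9 tested genes was higher and 2 lower in MDA-MB-231, and 2 of 8 were higher and 2 lower in SUM159PT.

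**Figure D5:**
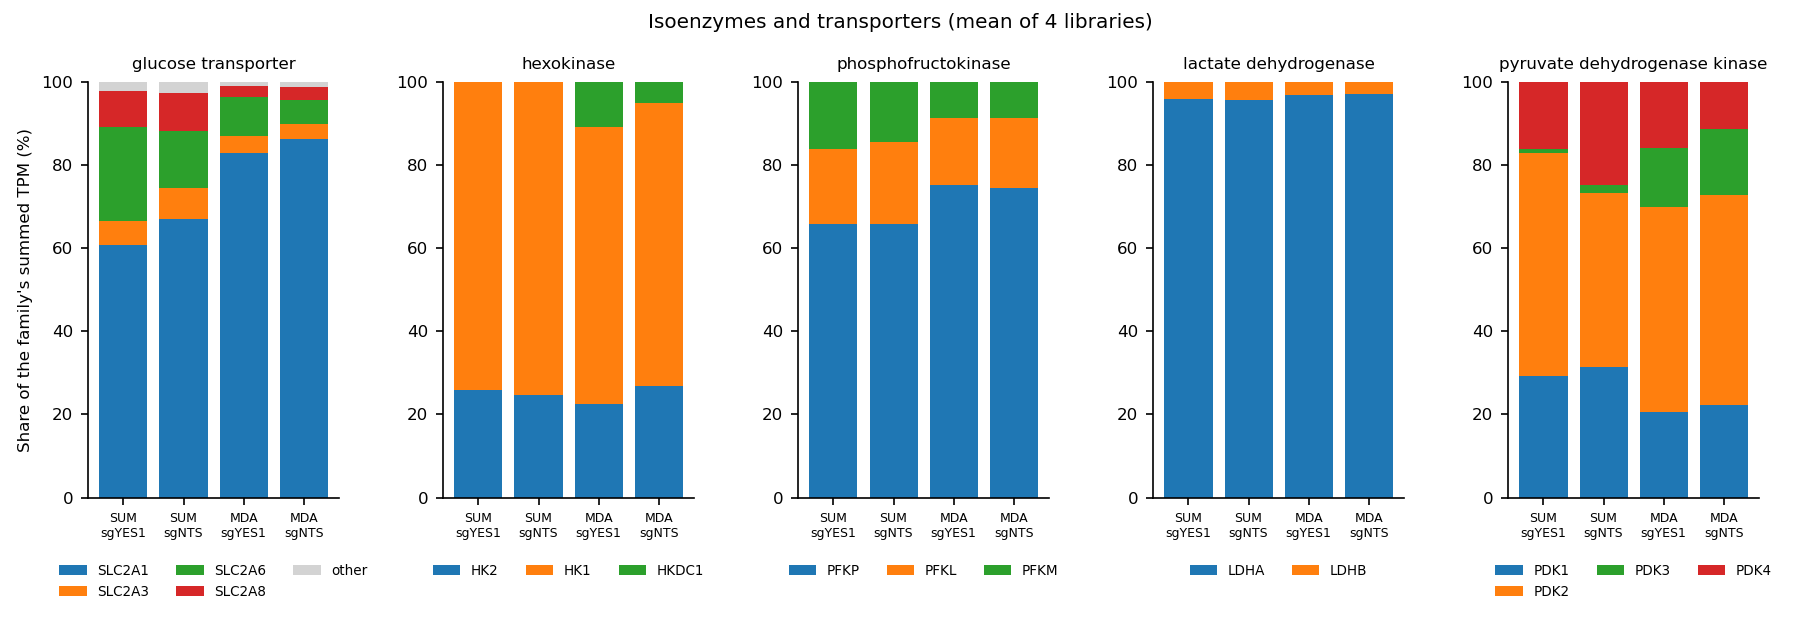
Share of each gene in the summed TPM of its family (for the transporters, the SLC2A genes named above), in percent, as stacked means of 4 libraries per group. LDHA holds nearly all of its family in every group, HK1 is the largest hexokinase, and PDK2 has a larger share than PDK1 per exon base, an order that turns over by CPM.

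Of the kinases of the pyruvate dehydrogenase complex, PDK1 made up 20.5% ± 0.931 in sgYES1 and 22.3% ± 2.33 in sgNTS of MDA-MB-231 of the family's summed TPM, and 29.2% ± 3.19 in sgYES1 and 31.4% ± 1.74 in sgNTS of SUM159PT. PDK2 held 49.4% ± 0.872 in sgYES1 and 50.5% ± 3.21 in sgNTS of MDA-MB-231, and 53.5% ± 2.85 in sgYES1 and 41.9% ± 2.61 in sgNTS of SUM159PT, and its log2 fold change did not pass (adjusted p = 0.381 in MDA-MB-231 and 0.640 in SUM159PT). Their order, PDK1 below PDK2, rests on gene length: by CPM, PDK1 was above PDK2 in all 4 groups, with 24.3 ± 3.17 CPM for PDK1 and 11.9 ± 1.04 CPM for PDK2 in SUM159PT sgNTS. PDK3 was tested in MDA-MB-231 and did not pass (adjusted p = 0.282). PDK4, known to be induced by fasting, was at 3.13 ± 0.943 CPM in sgYES1 and 5.85 ± 1.19 CPM in sgNTS of SUM159PT, and at 5.84 ± 0.607 CPM in sgYES1 and 4.32 ± 0.566 CPM in sgNTS of MDA-MB-231. It fell by 0.90 on the log2 scale in SUM159PT (adjusted p = 0.000678) and rose by 0.43 in MDA-MB-231 (adjusted p = 0.0102), and the effects differed (adjusted p = 0.000209). PDP1, a phosphatase that opposes these kinases, fell by 0.46 in SUM159PT and rose by 0.25 in MDA-MB-231 (adjusted p of the difference = 7.39e-06). DLAT, the acetyltransferase of the complex, fell by 0.22 in MDA-MB-231 (adjusted p = 0.000134). Of the complex and its regulators, 2 of 11 tested genes were higher and 2 lower in MDA-MB-231, and none of 10 was higher and 2 were lower in SUM159PT.

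In the pentose phosphate pathway, which branches off after hexokinase, 2 of 7 tested genes were higher and 1 lower in MDA-MB-231, and none was higher and 4 were lower in SUM159PT. TKT, the transketolase, was at 1308 ± 68.8 CPM in sgYES1 and 1448 ± 13.4 CPM in sgNTS of SUM159PT, and at 746 ± 24.6 CPM in sgYES1 and 679 ± 13.4 CPM in sgNTS of MDA-MB-231. It fell by 0.15 on the log2 scale in SUM159PT and rose by 0.14 in MDA-MB-231 (adjusted p of the difference = 0.000226). RPIA, the ribose phosphate isomerase, fell by 0.46 in MDA-MB-231 (adjusted p = 4.87e-06). Of the genes of gluconeogenesis and glycogen, 4 of 11 tested were lower in MDA-MB-231 and 4 of 9 in SUM159PT, and none was higher. PCK2, the mitochondrial carboxykinase, was at 42.9 ± 1.46 CPM in sgYES1 and 111 ± 17.1 CPM in sgNTS of SUM159PT, and fell by 1.38 (adjusted p = 2.96e-11); in MDA-MB-231 its log2 fold change was -0.10 (adjusted p = 0.183). FBP1, which reverses the phosphofructokinase step, was at 14.3 ± 0.916 CPM in sgYES1 and 23.2 ± 0.189 CPM in sgNTS of MDA-MB-231, and fell by 0.70 (adjusted p = 9.74e-07). PYGB, the brain-type glycogen phosphorylase, fell by 0.29 in MDA-MB-231 and by 0.43 in SUM159PT (adjusted p = 1.18e-05 and 1.66e-08).

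Under the non-targeting guide, 7 of the 10 genes were higher and 1 lower in SUM159PT than in MDA-MB-231, by edgeR over 15567 genes, of which 82.7% were called, 40.4% higher and 42.3% lower. The lines did not overlap for 77.6% of these genes, and of the 239 that averaged 500 CPM or more, 50.2% were higher and 38.1% lower. SLC2A1 was the lower one, at 227, 219, 224 and 214 CPM in SUM159PT and 622, 625, 646 and 661 CPM in MDA-MB-231, a ratio of 0.351 (log2 fold change -1.51, SE 0.035, adjusted p = 9.73e-15). These CPM were scaled within each line, while the ratio came from the fit of the sgNTS libraries on a shared scale. ALDOA was higher by 0.85 on the log2 scale, with the limit on its counts given above. PGK1 was higher by 0.50, HK2 by 0.33, GAPDH by 0.32, ENO1 by 0.26, PFKP by 0.24 and LDHA by 0.10, with adjusted p from 1.28e-09 to 0.00798. The call of LDHA was lost with no filter on low counts (adjusted p = 0.303). PKM, with a log2 fold change of 0.04 (95% interval -0.02 to 0.10, adjusted p = 0.158), and PDK1, with -0.17 (95% interval -0.36 to 0.03, adjusted p = 0.0981), did not pass. The lines were deposited in separate tables, so line, medium and table cannot be told apart.

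For each member, the nearest of 8462 other genes in pattern was found by the root mean square difference of log2 CPM over the 16 libraries, each gene centred on its mean in each line. The nearest were ADD1 for SLC2A1, TTI1 for HK2, DCAF11 for PFKP, PMS2 for ALDOA, DDB1 for GAPDH, PRDX6 for PGK1, KHDRBS1 for ENO1, SCAP for PKM, ADH5 for LDHA and CEP44 for PDK1. Their distances ran from 0.0219 for ENO1 to 0.0794 for PDK1. The members' own root mean square departure from their line means ran from 0.0237 for PKM to 0.186 for PDK1. PKM lay 0.0231 from SCAP, close to its own departure, so that match shows little shared pattern. Among the members, the nearest pairs were GAPDH and ENO1, at 0.0383, and PGK1 and LDHA, at 0.0386. PDK1 lay farthest from the others, at 0.151 from PFKP, its nearest member.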

How the data were processed

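Poly-A RNA of 16 libraries was sequenced by the authors. They deposited 1 table of raw read counts per gene for each line; per the submitters' processing notes, the tools were HISAT2 2.0.5 for alignment and featureCounts 1.5.0-p3 for counting, with the hg38 build. Strand and multimapping settings are not given in the sources used here. Counts were tested with edgeR 4.0.16 in R 4.3.3 (quasi-likelihood test, TMM scaling, filterByExpr with a smallest count of 10 and a smallest total of 15), with Benjamini-Hochberg adjustment over all genes tested and a threshold of 0.05. The guide effect in a line was fitted on that line's 8 libraries, the difference between lines on all 16, and the lines' levels on the 8 sgNTS libraries. CPM were computed from library sizes TMM-scaled within each line, except that the sums of markers and of members used library totals unless stated. Overlap between the lines, and the level of 500 CPM for that comparison, used TMM scaling over all 16 libraries. TPM were computed from the tables' gene lengths, which for the members equal the union of their GENCODE 29 exons. Intervals are 95% intervals of each gene alone, without adjustment over genes. An interval can thus lie clear of no change where the adjusted p does not pass. Figures were drawn with matplotlib 3.10.9. The code was tested on simulated data.

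The 10 genes and all lists were chosen with earlier results of these data known. Besides the members, the text names, by rule, up to 4 tested genes of each list with the smallest p in either line, the isoenzymes of members, TXNIP, HIF1A, MYC and YES1, and for each member the gene of nearest pattern averaging 10 CPM or more in both lines. Alternatives were RLE size factors, library totals alone, DESeq2 1.42.0, no filter on low counts, a replicate block and leaving out each replicate. Leaving out MDA-MB-231 sgNTS replicate 4 together with SUM159PT sgNTS replicate 2, and the background of genes averaging 500 CPM or more, were chosen after seeing the data. Promoter sequences are from RefSeq (GRCh38.p14), and all 10 members matched by symbol.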

Additional observations from a re-analysis of the deposited data

Results flagged for a closer look

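PDK1 was at 31.7 CPM in MDA-MB-231 sgNTS replicate 2, while the other 3 sgNTS libraries were at 25.9 to 26.9 CPM. Its gap to the nearest library was 0.833 of the range of the group, just above Dixon's critical value for 4 libraries. This was 1 of 40 groups of libraries examined for the members, and chance alone gives about 5%.

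The guide effect on 3 members differed between the lines by the interaction test in edgeR. Of 16640 genes tested, 24.5% passed the same test. The difference, SUM159PT minus MDA-MB-231 on the log2 scale, was 0.22 for PGK1, 0.18 for HK2 and 0.17 for LDHA. That of HK2 was lost under 3 of 22 alternatives.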

How the results depend on the processing

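The members' calls that moved by more than 1.5 times were these. With no filter on low counts, 8 members in place of 5 were lower in MDA-MB-231, with HK2, PFKP and PDK1 added, and 2 in place of 1 were lower in SUM159PT than in MDA-MB-231 under sgNTS, with PDK1 added and the call of LDHA lost (higher in SUM159PT, 0.05 on the log2 scale). With library totals alone, 1 member (HK2) was higher in SUM159PT. With DESeq2, the guide effect differed between lines for 5 members in place of 3, with SLC2A1 and GAPDH added. With TMM-scaled library sizes the sum of the members was 9944 CPM in MDA-MB-231 sgYES1 and 10902 CPM in MDA-MB-231 sgNTS, against 10086 and 10719 CPM with library totals. The cause was not tested. Leaving out each replicate gave 5 to 7 members lower and none higher in MDA-MB-231, 2 to 3 lower and 0 to 1 higher in SUM159PT, 2 to 5 with a different effect, and 7 higher and 1 to 2 lower in SUM159PT than in MDA-MB-231 under sgNTS. The higher one in SUM159PT was HK2, without sgYES1 replicate 4. Without MDA-MB-231 sgNTS replicate 4, 5 members were lower in that line; without SUM159PT sgNTS replicate 2, 2 were lower in that line. With both left out, 2 had a different effect. Related genes came to 10 to 12 higher and 16 to 20 lower in MDA-MB-231, and 6 to 8 higher and 12 to 16 lower in SUM159PT.

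Signs turned only where no call was made: PKM in MDA-MB-231 was at 0.024 with library totals alone, LDHA in SUM159PT at 0.0043 with library totals alone and 0.0045 without sgYES1 replicate 2 (range without each replicate -0.053 to 0.0045), and PKM between the lines at -0.00016 with no filter. Of the alternative values of single members, 565 kept their direction and side of the threshold, 28 gained a call, 13 lost one and 4 turned sign.

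Replicate numbers showed no clear pairing of the samples, which does not settle whether they were paired. Correlations between guides were taken on log2 CPM after each gene's group mean was subtracted. Same-numbered libraries had -0.105 to 0.047 in MDA-MB-231 and -0.0075 to 0.046 in SUM159PT. Libraries of different number had -0.078 to 0.118 and -0.042 to 0.041, and not every library correlated best with its own number. With the replicate block 5 members were lower in MDA-MB-231 and 3 in SUM159PT, 2 had a different effect, the call of HK2 being lost, and 7 were higher and 1 lower between the lines. Over all genes the block gave 2868 higher and 3033 lower in MDA-MB-231, 2904 higher and 2982 lower in SUM159PT, and 3817 with a different effect. ALDOA and PDK1 had the fewest counts of the members; the effect of depth was not tested.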
